A study of Mus musculus with 2 samples.

Results

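The cDC2-like cells of B16 tumours were taken as barcodes with at least 2 UMIs (unique molecular identifiers, tags that count each captured transcript once) over Cd209a, Cd209d and Flt3 and at least 20 over the MHC class II genes H2-Aa, H2-Ab1 and H2-Eb1. They also had at most 1 UMI over Cd3d, Cd3e and Cd3g, fewer than 10 over C1qa, C1qb and C1qc, none of Xcr1 or Clec9a, and at most 1 over Ccr7, Fscn1 and Cacnb3. The cells were thus chosen by their own UMI counts, which gave 55 of 2611 barcodes, 15 of 1301 from Nrp1L/L and 40 of 1310 from control tumours. No member was removed by a later filter. The data are droplet single-cell RNA counts of CD45+ leukocytes sorted from B16 melanomas, a transplanted mouse tumour, on day 14 in female C57BL/6 mice aged 5 weeks. The Nrp1L/L library came from Nrp1L/LFoxp3Cre-YFP mice, which carry floxed Nrp1 alleles and Cre with a yellow fluorescent protein driven by Foxp3, the regulatory T cell factor. Control mice were Foxp3Cre-YFP, with the same Cre and no floxed alleles. Each genotype had 1 library and the labels do not give how many mice it pooled, so genotype, mouse, tumour and library cannot be told apart and no difference below was tested.

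Conventional dendritic cells take up antigen in tissue, load it on MHC molecules and carry it to T cells. The cDC2 branch, also called type 2, presents mainly on class II to CD4 T cells, while the cDC1 branch specialises in presenting captured antigen on class I to CD8 T cells. Cd209a, a C-type lectin receptor, marks mouse cDC2 and also dendritic cells that derive from monocytes. Flt3 is the growth factor receptor that dendritic cell precursors depend on. Ccl17 is a chemokine ligand of Ccr4, Mgl2 and Clec10a are lectins that bind galactose-type sugars, and interferons are the antiviral and T cell signals that switch on large gene sets in such cells.

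The Nrp1L/L library held 8978610 UMIs with a median of 5334 in each barcode, and the control library held 13042802 with a median of 8079.5. The cDC2-like cells were closer in depth, at a median of 9053 UMIs (2692 to 22760) in Nrp1L/L cells and 9509 (4585 to 26246) in control cells. Summed over cells this gave 140821 and 419546 UMIs, so the Nrp1L/L values carry wider counting error. The libraries shared 3 barcodes, of which 0 were cDC2-like. The highest 2% of doublet scores, 26 barcodes in each library, included 0 of them. Levels are counts per 1000000 UMIs of the summed cells (CPM), and a log2 ratio is Nrp1L/L over control. Intervals are 95% and cover counting error only, since cells of 1 library are not replicates.

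Fewer Nrp1L/L than control barcodes were cDC2-like, and the same held for each of the 4 other myeloid populations set by marker counts. They were 1.15% of Nrp1L/L barcodes (exact interval 0.647 to 1.89) and 3.05% of control barcodes (2.19 to 4.13), a difference of -1.90 percentage points (-3.07 to -0.808). Without cells with at least 5 cell cycle UMIs, which left 9 Nrp1L/L and 12 control cells, the control share was 0.916% and the difference -0.224 points. That filter is a raw count not scaled to depth. It was put on cDC2-like cells only, with all barcodes kept in the denominator. It left out 6 Nrp1L/L and 28 control cells, of which 1 and 3 held at least 100 cell cycle UMIs. Shares of a sorted leukocyte pool depend on each other, and T-type cells were 57.8% of Nrp1L/L and 31.5% of control barcodes. Against myeloid cells alone the gap narrowed. Of cDC2-like, C1q macrophage-type and monocyte-type cells together, 15 of 190 (7.89%) were cDC2-like in the Nrp1L/L library and 40 of 422 (9.48%) in the control library, a difference of -1.58 points (-5.99 to 3.73). Among the 3 dendritic gates the cDC2-like cells were 15 of 25 (60%) Nrp1L/L and 40 of 85 (47.1%) control cells, a difference of 12.9 points (-9.00 to 32.4). Both of these intervals include 0. The cDC1-type gate held 2 Nrp1L/L and 18 control cells, and the gate for mature cells with Ccr7, Fscn1 or Cacnb3 held 8 and 27.

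**Figure D1:**
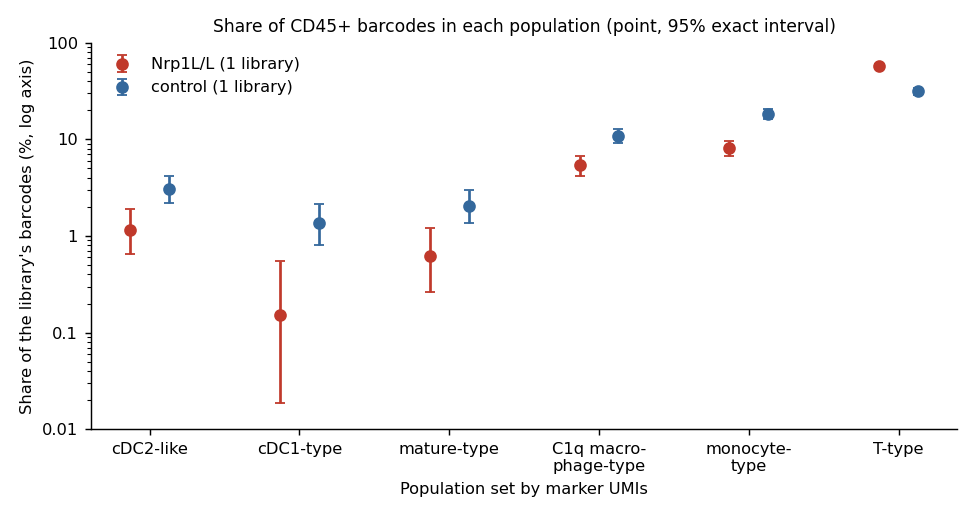
Share of each library's barcodes (per cent, log axis) that fell in each population set by marker UMIs, with exact 95% intervals, Nrp1L/L left of control. The cDC2-like, cDC1-type, mature-type, C1q macrophage-type and monocyte-type points all lie lower in Nrp1L/L, and the T-type point lies higher.

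The values that chose the cells are given as description. Cd209a carried the choice, with a UMI in 14 of 15 Nrp1L/L and 38 of 40 control cells. It summed to 348 UMIs in Nrp1L/L cells (2471 CPM, median 13 in a cell, 0 to 100) and to 558 in control cells (1330 CPM, median 8, 0 to 86). Flt3 was found in 5 Nrp1L/L and 11 control cells. The class II sum had a median of 173 UMIs (20 to 805) in Nrp1L/L cells and 444 (21 to 1083) in control cells. Few cells lay at the lectin threshold. Cells that met the other conditions with a lectin and Flt3 sum of 1, just outside, numbered 1 in the Nrp1L/L and 6 in the control library, while those with a sum of 2, just inside, numbered 1 and 3.

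Of the 5 markers of the label only Cd209a, which chose the cells, and Clec10a were found in most cells of both libraries. Monocyte transcripts were also plentiful. The monocyte list summed to 23242 CPM in Nrp1L/L and 6073 CPM in control cells. The cDC2 identity list outside the rule, made of other genes, summed to 1534 and 3868 CPM. The leading genes outside the rule were ranked by the smaller of their folds over all other barcodes of the same library, where T-type cells were the most numerous of the populations set by markers. H2-DMb2, a class II peptide loading chain, was 25.3-fold higher than in other barcodes in the Nrp1L/L library and 16.9-fold in the control library. Clec10a was 16.1-fold and 12.5-fold higher, Mgl2 11.2-fold and 17.7-fold, and the kynurenine pathway enzyme Kmo 29.2-fold and 13.5-fold. Cbfa2t3, a transcriptional corepressor, was 19.0-fold and 6.07-fold higher, and the aspartic protease Napsa 8.53-fold and 5.85-fold. The other leading genes outside the rule were Bex6, Kynu, Tnip3, H2-Oa, Ryr1, Vrk1, Adrbk2, Ciita and B4galt4. Flt3 had 0 UMIs in all C1q macrophage-type cells of both libraries, while the monocyte-type gate left out cells with it. Zbtb46, a factor that separates conventional dendritic cells from monocytes, was rare, with 1 UMI in Nrp1L/L cells and 8 UMIs in 4 control cells.

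Macrophage and monocyte identity genes set the cells partly apart from their neighbours. Mertk, a macrophage receptor for dying cells, had 0 UMIs in cDC2-like cells of both libraries, as did Gas6. Other macrophage genes were present there. Dab2 had a UMI in 5 of 15 Nrp1L/L and 22 of 40 control cells, and Apoe in 4 and 11. Mrc1 had one in 3 and 9, and Adgre1 in 3 and 4. The macrophage list outside the rule summed to 383 CPM in Nrp1L/L and 443 CPM in control cells. In C1q macrophage-type cells it summed to 4434 and 6011 CPM. Fcgr1, the high-affinity IgG receptor, stood at 348 CPM in Nrp1L/L and 153 CPM in control cDC2-like cells, against 976 and 910 CPM in monocyte-type cells. Lyz2, the lysozyme of myeloid cells, reached 14245 CPM in Nrp1L/L and 1754 CPM in control cDC2-like cells, against 32810 and 25684 CPM in monocyte-type cells, which were gated on it. The name cDC2-like is kept as the label of the gate. Clec10a, Mgl2 and H2-DMb2 were leading genes against all other barcodes, a ranking that cannot settle the name. The rule itself chose cells rich in class II genes, and H2-DMb2 belongs to that pathway. H2-DMb2 was found in 5, Mgl2 in 4 and Clec10a in 9 of 15 Nrp1L/L cells. In the 40 control cells these counts were 26, 19 and 30. Cd209a, Mgl2 and class II genes do not separate cDC2 from dendritic cells of monocyte origin.

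**Figure D2:**
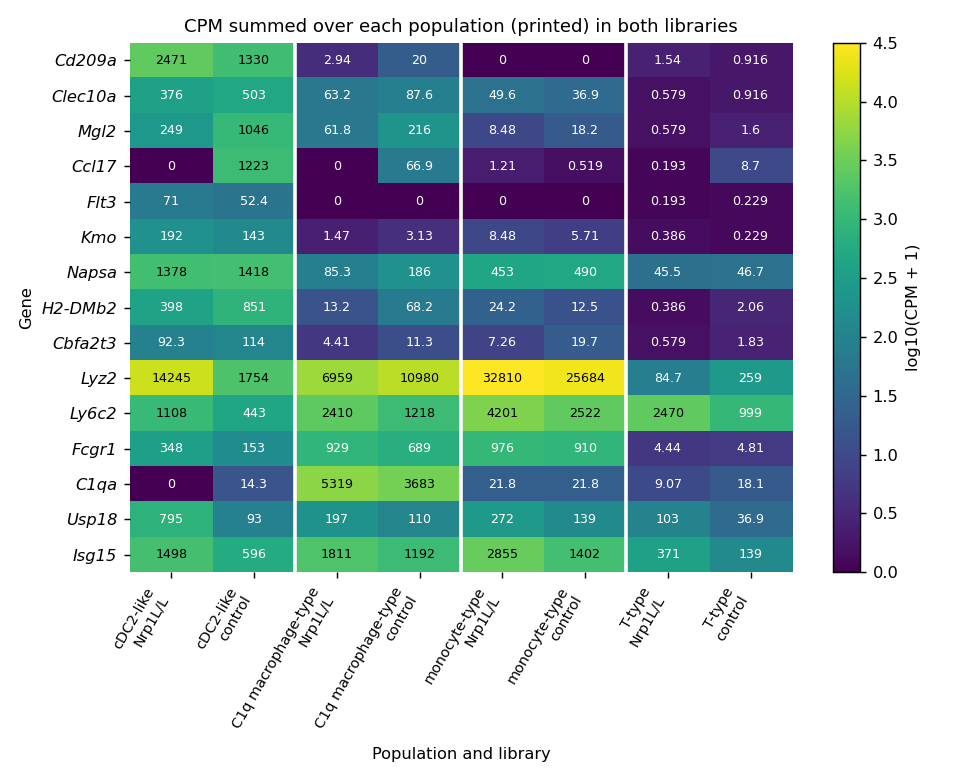
CPM (printed in each field, colour on a log10 scale) of 15 genes summed over cDC2-like, C1q macrophage-type, monocyte-type and T-type cells, with Nrp1L/L left of control in each pair. Cd209a, Kmo, H2-DMb2 and Cbfa2t3 are highest in the cDC2-like columns, and C1qa is near 0 there. Cd209a, Flt3, Lyz2, Ly6c2 and C1qa helped to set the populations.

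Markers of several other lineages were scarce, while some genes of the NK and plasmacytoid lists were found in many cells. Klrk1 of the NK list had a UMI in 11 of 15 Nrp1L/L and 24 of 40 control cells. Of the plasmacytoid list, Tcf4 had one in 3 Nrp1L/L and 13 control cells, and Irf7 in 13 and 30. No gene of the T cell, B cell, neutrophil, basophil or mast cell, or melanoma lists outside the rule reached 20 UMIs over both libraries. A single Nrp1L/L cell held at least 3 UMIs of the NK genes Ncr1 and Klrb1c. That cell also carried 76.3% of the Nrp1L/L UMIs of Nkg7, a cytotoxic granule gene, and 85.5% of those of the chemokine gene Ccl5. Nkg7 had a UMI in 9 of 15 Nrp1L/L and 8 of 40 control cells. In the control library 2 cells held at least 5 UMIs of plasmacytoid dendritic cell genes (Siglech, Ly6d, Klk1, Cox6a2 and Ccr9). Without these 3 cells the medians given below were 1.79 for type I interferon, 1.68 for interferon-gamma and 1.31 for monocyte genes. Nrp1 itself, the targeted gene, had 8 UMIs in 3 Nrp1L/L and 10 UMIs in 4 control cDC2-like cells, a log2 ratio of 1.25 (-0.29 to 2.75). The Cre is driven by Foxp3, and tags near the 3' end may lie outside the floxed part, so these counts do not check the deletion.

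Genes of the cDC2 programme outside the rule stood lower in Nrp1L/L cells as a list, with a wide spread between cells. Over all 3230 genes with at least 20 UMIs in the cDC2-like cells of both libraries, 22.5% stood higher by 1.5-fold or more in Nrp1L/L cells and 23.1% stood lower by as much, with a median log2 ratio of -0.01. Of 10 cDC2 identity genes measured, 0 were at least 1.5-fold higher and 5 lower, with a median of -0.67. The 5 were Ccl17, Mgl2, Sirpa, Itgam and Ear2. The median was -0.69 with totals that left out the rule genes and -0.31 with no minimum count. Of the smaller lineage lists, macrophage genes had 0 of 3 measured higher by 1.5-fold and 2 lower, mature dendritic cell genes 1 of 3 higher and 0 lower, plasmacytoid genes 1 of 4 higher and 2 lower, and NK genes 2 of 3 higher and 0 lower. The higher mature gene was Ccl5 and the higher NK genes included Nkg7. The cell with NK genes held 85.5% and 76.3% of their Nrp1L/L UMIs.

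Ccl17 (chr8:94810453-94812036, GRCm38) was the most unequal of these genes. It had 0 UMIs in all 15 Nrp1L/L cells and 513 UMIs in 13 of 40 control cells, where the median was 0 and the highest cell held 267. Against a floor of 3 counts over the Nrp1L/L cells its summed level was 57.4-fold lower there (log2 -5.84). This value takes no account of the spread between cells, and it ran from -6.80 to -3.93 over the alternatives. A single control cell gave 52.0% of the UMIs. By the floor of 3 counts, 0 of 15 allows a share of up to 20% of cells with a UMI, which limits detection and not expression. The exact Nrp1L/L interval, 0 to 21.8%, overlapped the control interval of 18.6 to 49.1% around 32.5%. T-type cells, which should lack the gene, had it in 0.133% of Nrp1L/L and 1.21% of control cells, at median depths of 5100.5 and 7151 UMIs. After thinning every cell to 2500 UMIs, 0 of 15 Nrp1L/L and 10 of 40 control cDC2-like cells kept a UMI. In C1q macrophage-type cells Ccl17 also had 0 CPM in the Nrp1L/L library and 66.9 CPM in the control library.

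Mgl2, the second of the markers, was found in 4 of 15 Nrp1L/L cells (26.7%, 7.79 to 55.1; highest cell 19 UMIs) and in 19 of 40 control cells (47.5%, 31.5 to 63.9; highest cell 101 UMIs). The summed level was 249 CPM in Nrp1L/L and 1046 CPM in control cells, a log2 ratio of -2.07 (-2.61 to -1.58), while the intervals of the shares overlapped. T-type shares were 0.399% and 1.70%. Clec10a differed less, with 53 UMIs in 9 Nrp1L/L cells (376 CPM) and 211 UMIs in 30 control cells (503 CPM), a log2 ratio of -0.42 (-0.88 to 0.02). Ccl17 and Mgl2 often marked the same control cells. Both were present in 0 of 15 Nrp1L/L and 10 of 40 control cells, and at least 1 of them in 4 Nrp1L/L and 22 control cells. Cells with at least 5 UMIs of the monocyte gene Ly6c2 numbered 9 in Nrp1L/L and 6 in control, of which 0 and 0 had a Ccl17 UMI and 3 and 1 an Mgl2 UMI. Of these 6 control cells, 2 were the cells with plasmacytoid genes.

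**Figure D3:**
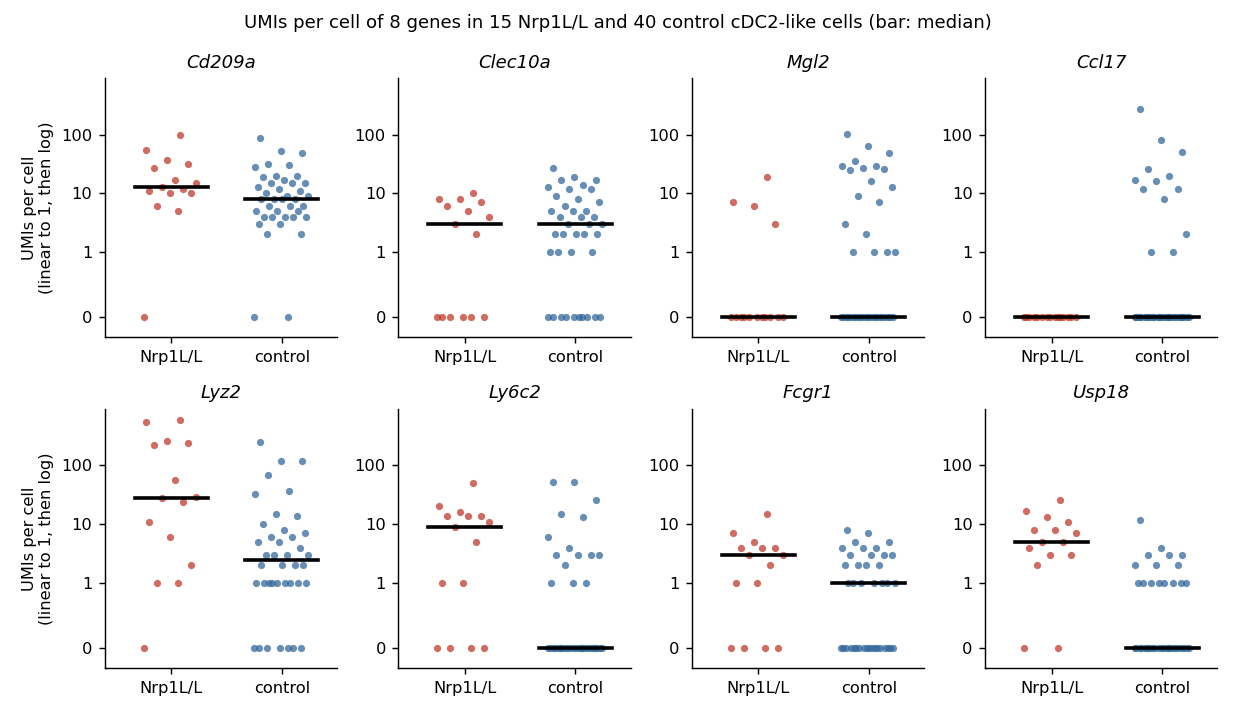
UMIs in each of 15 Nrp1L/L (left) and 40 control (right) cDC2-like cells for 8 genes, on an axis that is linear to 1 and logarithmic above, with bars at the medians. Ccl17 is at 0 in all Nrp1L/L cells and reaches 267 in a control cell, while Lyz2, Ly6c2 and Usp18 have higher medians in Nrp1L/L. Cd209a was used to choose the cells.

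Other conventional dendritic cell genes were mixed. Of 8 measured genes of that list 2 were at least 1.5-fold higher and 3 lower in Nrp1L/L cells, with a median of -0.44. H2-DMb2 stood at 398 CPM in Nrp1L/L and 851 CPM in control cells (log2 -1.10, -1.53 to -0.69), and was found in 5 of 15 and 26 of 40 cells. Id2, a regulator needed by several dendritic lineages, stood at 199 CPM in Nrp1L/L and 572 CPM in control cells (log2 -1.52, -2.14 to -0.96). Cst3, an inhibitor of cathepsins, had a log2 ratio of -0.58 (-0.67 to -0.49), and Spi1, the PU.1 factor of myeloid cells, of 0.34 (0.04 to 0.63). The Cst3 sums leaned on single cells, with medians of 41 UMIs in Nrp1L/L and 53 in control cells and highest cells of 670 and 631. Genes named for the cDC1 list but shared with other cells leaned the other way, with 4 of 6 higher and 1 lower (median 0.92). The same list had medians of 0.77 in C1q macrophage-type, 0.93 in monocyte-type and -0.21 in T-type cells. Of its genes Irf8, which is also interferon-responsive, stood at 937 CPM in Nrp1L/L and 410 CPM in control cDC2-like cells (log2 1.19, 0.85 to 1.53). Irf4, the factor that cDC2 rely on, had 0 UMIs in Nrp1L/L and 9 in control cells, too few to compare.

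Monocyte genes stood higher in Nrp1L/L cDC2-like cells. Of 11 measured, 9 were at least 1.5-fold higher and 1 lower, with a median log2 ratio of 1.30. The same list had medians of -0.48 in C1q macrophage-type and 0.01 in monocyte-type cells of these libraries, a gate that used Ly6c2 and Lyz2. The list made up a median of 115 in each 10000 UMIs of a Nrp1L/L cell (53.1 to 788) and 46.7 of a control cell (3.56 to 503), so the ranges overlapped.

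Lyz2 (chr10:117277331-117282321) had a median of 28 UMIs in Nrp1L/L cells (0 to 585) and 2.5 in control cells (0 to 249), with a log2 ratio of 3.02 (2.90 to 3.15). Cells with at least 100 Lyz2 UMIs were 5 of 15 Nrp1L/L (33.3%, 11.8 to 61.6) and 3 of 40 control cells (7.5%, 1.57 to 20.4). Without those 8 cells the Lyz2 ratio was 1.27, the monocyte median 1.01, and F13a1, a coagulation factor of monocytes, turned to -0.67, against 3.74 (2.44 to 5.31) with them. T-type cells, which should lack the gene, had a Lyz2 UMI in 33.6% of Nrp1L/L and 55.8% of control cells, at 84.7 and 259 CPM. After thinning 11 of 15 Nrp1L/L and 18 of 40 control cDC2-like cells had one.

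Ly6c2, a surface protein of inflammatory monocytes that T cells also carry, had a median of 9 UMIs in Nrp1L/L cells (0 to 51) and 0 in control cells (0 to 53), with a log2 ratio of 1.32 (1.00 to 1.64). At least 5 UMIs were found in 9 of 15 Nrp1L/L (60%, 32.3 to 83.7) and 6 of 40 control cells (15%, 5.71 to 29.8), intervals that did not overlap. Of those 6 control cells the highest 2, at 52 and 53 UMIs, were the cells with plasmacytoid genes. Ccr2, the receptor that brings monocytes into tissue, had a log2 ratio of 1.30 (0.68 to 1.91), from 43 UMIs in Nrp1L/L and 52 in control cells. Ms4a4c and Fcgr1 stood at 1.34 (1.08 to 1.59) and 1.19 (0.62 to 1.75). Csf1r, the macrophage growth factor receptor, did not share this direction (-0.30, -1.55 to 0.80). Whether the gate held different mixtures of dendritic and monocyte-derived cells in the libraries was not tested.

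Interferon-stimulated genes stood higher in Nrp1L/L cells with few exceptions. Of 19 measured type I interferon genes, 17 were at least 1.5-fold higher in Nrp1L/L cells and 0 lower, and all 19 had ratios above 0, with a median log2 of 1.65. Of 20 measured interferon-gamma response genes, 13 were at least 1.5-fold higher and 0 lower, with a median of 1.59. The lists are not independent of each other in biology, since many of these genes answer both kinds of interferon. The medians ran from 0.94 to 1.79 for type I and from 0.84 to 1.81 for interferon-gamma genes over all alternatives. Both were lowest when the rule was applied to thinned cells, with its lectin and Flt3 minimum lowered to 1 UMI. The cells chosen in that way need not be the same ones.

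The difference was spread over most cells. Type I genes made up a median of 108 in each 10000 UMIs of a Nrp1L/L cell (quartiles 45.4 and 138, range 2.38 to 212) and 27.2 of a control cell (quartiles 12.3 and 52.0, range 4.27 to 169). Interferon-gamma genes made up 61.0 of a Nrp1L/L cell (quartiles 37.4 and 128) and 33.5 of a control cell (quartiles 22.0 and 50.8). The ranges overlapped. The lowest Nrp1L/L cell, at 2.38, lay below the lowest control cell, at 4.27, and was a cell with many Lyz2 UMIs. Leaving out the cells with at least 100 Lyz2 UMIs gave medians of 1.54 for type I and 1.48 for interferon-gamma genes.

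**Figure D4:**
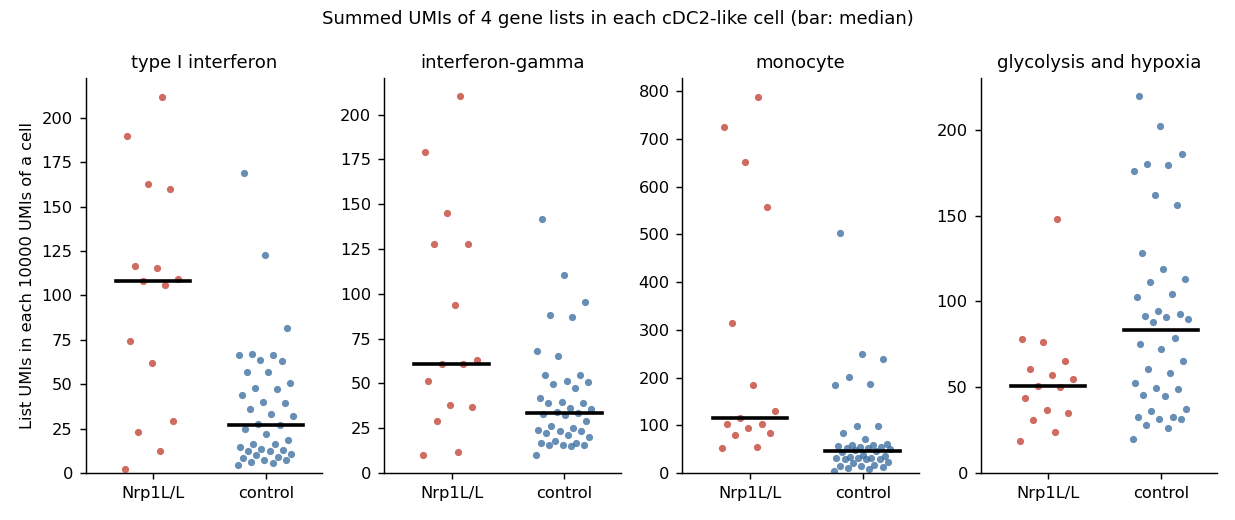
UMIs of 4 gene lists in each 10000 UMIs of a cDC2-like cell (linear axes from 0), 15 Nrp1L/L cells left and 40 control cells right, with bars at the medians. The type I medians are 108 in Nrp1L/L and 27.2 in control cells, the interferon-gamma medians 61.0 and 33.5, the monocyte medians 115 and 46.7, and the glycolysis and hypoxia medians 50.7 and 83.5.

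Usp18, which removes the ubiquitin-like Isg15 from proteins and damps interferon receptor signalling, had a median of 5 UMIs in Nrp1L/L cells (0 to 26) and 0 in control cells (0 to 12), 795 CPM in Nrp1L/L against 93.0 CPM in control cells, a log2 ratio of 3.10 (2.56 to 3.66). The ratio was 2.34 with the rule on thinned cells and 1.99 without cells with at least 5 cell cycle UMIs. A UMI was found in 13 of 15 Nrp1L/L cells (86.7%, 59.5 to 98.3) and 16 of 40 control cells (40%, 24.9 to 56.7), against 24.3% of Nrp1L/L and 15.05% of control T-type cells. After thinning the cDC2-like shares were 73.3% and 20%. Usp18 was also higher in the Nrp1L/L library in monocyte-type cells, at 272 CPM against 139 CPM in control, and in C1q macrophage-type cells, at 197 CPM against 110 CPM.

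Irf7, the amplifier of type I interferon production, had medians of 10 UMIs in Nrp1L/L and 3 in control cells and a log2 ratio of 2.07 (1.77 to 2.37). Isg15, the ubiquitin-like modifier, had the same medians of 10 and 3 UMIs and a ratio of 1.33 (1.06 to 1.60). Ifi204, a DNA sensor, was found in 13 of 15 Nrp1L/L and 16 of 40 control cells with a ratio of 2.64 (2.12 to 3.17). Zbp1, a sensor of unusual nucleic acid helices, stood at 1.73 (1.38 to 2.08), and the translation inhibitor Ifit3 at 1.79 (1.28 to 2.30). The smallest ratio of the list was that of Bst2, the tethering factor, at 0.34 (0.02 to 0.66).

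On the interferon-gamma side, Gbp2, a GTPase that attacks pathogen vacuoles, stood at 696 CPM in Nrp1L/L and 54.8 CPM in control cells, a log2 ratio of 3.67 (2.999 to 4.39). A single cell held 57 of its 98 Nrp1L/L UMIs, and without the top cell of each library the ratio was 2.83. Over the alternatives it ran from 1.87, with the rule on thinned cells, to 6.61, without cells with at least 5 cell cycle UMIs. Fam26f stood at 3.38 (2.502 to 4.35) with no cell above 22.4% of the Nrp1L/L UMIs, and at 5.48 without cells with at least 5 cell cycle UMIs. Irf1, the first factor that interferon-gamma induces, had a ratio of 2.53 (1.92 to 3.16), and the immunity GTPase Ifi47 of 2.12 (1.59 to 2.66). The ligands of Cxcr3 that draw T cells were counted in few cells. Cxcl10 was found in 6 Nrp1L/L and 7 control cells with a ratio of 1.61 (1.24 to 1.98), and Cxcl9 in 7 and 5 cells with 2.65 (1.44 to 3.98). Socs1 (0.42, -0.65 to 1.41) and Cd274, the PD-L1 gene (-0.10, -1.91 to 1.41), had intervals that included 0.

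The same lists were higher in the Nrp1L/L library in other cells too. The type I median was 0.57 in C1q macrophage-type, 0.97 in monocyte-type and 1.23 in T-type cells, and the interferon-gamma median was 1.21, 1.47 and 0.95 in these populations. Their all-gene medians were -0.03, -0.02 and 0.00. The difference between populations was not tested, and the populations of each library shared 1 tumour preparation.

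The sequences before the starts of 3 of these genes are shown because a motif of interferon-activated factors lies in them, with Ccl17 as the cDC2 gene that had 0 UMIs in Nrp1L/L cells. The motif searched was TTTCNNTTTC or its reverse complement GAAANNGAAA, so both strands were covered, in the 250 bases before the first start that RefSeq lists for each gene (GRCm38.p6), and matches to it are in capitals. It was found in 8 of 14 measured type I genes with a listed promoter (57.1%), in 7 of 15 interferon-gamma genes (46.7%), in 0 of 7 monocyte genes, 0 of 15 glycolysis and hypoxia genes and 0 of 7 cDC2 identity genes, and in 3.04% of all 27025 promoters. A second motif, TTCNNNGAA, reads the same on both strands. It was found in 4 of 14 type I (28.6%), 5 of 15 interferon-gamma (33.3%), 1 of 7 monocyte (14.3%), 0 of 15 glycolysis and hypoxia and 2 of 7 cDC2 identity genes (28.6%), and in 7.18% of all promoters. The Ccl17 window holds this second motif, which is not capitalised, and the Isg15, Ifit3 and Cxcl10 windows do not. A match describes letters and is not a measured binding site. Isg15 lies at chr4:156200819-156201068 (minus strand), Ifit3 at chr19:34583279-34583528 (plus strand), Cxcl10 at chr5:92348890-92349139 (minus strand) and Ccl17 at chr8:94810203-94810452 (plus strand), all upstream of the gene.
Isg15: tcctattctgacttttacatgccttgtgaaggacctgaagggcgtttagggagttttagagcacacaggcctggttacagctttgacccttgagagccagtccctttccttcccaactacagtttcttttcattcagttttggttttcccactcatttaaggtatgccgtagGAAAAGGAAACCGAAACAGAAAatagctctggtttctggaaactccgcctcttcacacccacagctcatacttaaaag
Ifit3: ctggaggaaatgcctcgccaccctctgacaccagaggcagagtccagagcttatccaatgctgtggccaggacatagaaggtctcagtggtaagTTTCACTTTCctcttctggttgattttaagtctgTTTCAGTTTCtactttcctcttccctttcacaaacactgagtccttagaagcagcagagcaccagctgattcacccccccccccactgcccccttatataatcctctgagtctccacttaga
Cxcl10: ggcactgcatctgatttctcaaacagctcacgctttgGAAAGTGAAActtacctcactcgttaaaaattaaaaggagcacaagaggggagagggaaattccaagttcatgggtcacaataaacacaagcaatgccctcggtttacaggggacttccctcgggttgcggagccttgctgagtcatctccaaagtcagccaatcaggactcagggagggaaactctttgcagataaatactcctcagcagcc
Ccl17: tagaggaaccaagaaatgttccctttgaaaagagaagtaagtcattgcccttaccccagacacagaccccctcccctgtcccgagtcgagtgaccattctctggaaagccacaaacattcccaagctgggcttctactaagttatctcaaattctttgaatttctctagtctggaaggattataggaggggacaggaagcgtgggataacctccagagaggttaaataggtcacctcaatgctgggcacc
Isg15 held overlapping matches that joined into 22 bases, Ifit3 held separate ones over 20 bases and Cxcl10 held 10 bases, while the Ccl17 window held no match to this first motif.

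Class II antigen presentation outside the 3 rule genes was near the background. Of 14 measured genes 2 were at least 1.5-fold higher and 5 lower, with a median of -0.15. Cd74, the invariant chain, stood at 21794 CPM in Nrp1L/L and 27875 CPM in control cells (log2 -0.36, -0.41 to -0.30), and was found in every cDC2-like cell of both libraries. The lower genes included H2-Oa (-1.17, -2.10 to -0.35), which tunes peptide loading with H2-Ob (-2.47, -5.57 to -0.50). The protease Ctss did not differ by more than counting error (-0.01, -0.19 to 0.17). Ctsb, another protease of the endosome, stood at 0.66 (0.27 to 1.04). Class I presentation had a median of 0.10, also near that of all genes, with 2 of 18 higher and 2 lower. The peptide loading bridge Tapbp was the highest, at 1.70 (1.23 to 2.18), with 46.3% of its Nrp1L/L UMIs in 1 cell and 0.99 without the top cells.

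Of 9 measured costimulators and checkpoint ligands 3 were at least 1.5-fold higher and 0 lower (median 0.21). Cd40, the receptor through which CD4 T cells license dendritic cells, stood at 192 CPM in Nrp1L/L and 35.8 CPM in control cells, a log2 ratio of 2.42 (1.46 to 3.44). It was found in 6 of 15 Nrp1L/L and 7 of 40 control cells, against 0.665% and 1.94% of T-type cells. Lgals9, a ligand of Tim-3, stood at 1.43 (0.66 to 2.20). Cd86 (0.49, -0.28 to 1.21) and Cd83 (0.21, -0.29 to 0.70) had intervals that included 0. Tnfsf9, the ligand of 4-1BB, was at 0.75 (0.18 to 1.30) and at -0.32 without the top cells.

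Of 16 measured cytokine genes 1 was at least 1.5-fold higher and 5 lower, with a median of -0.28 that ran from -0.63 to 0.21 over the alternatives. Il1b, the inflammatory cytokine, stood at 547 CPM in Nrp1L/L and 1170 CPM in control cells (log2 -1.10, -1.46 to -0.75), with medians of 0 UMIs (0 to 27) and 5.5 UMIs (0 to 63). Il1r2, the decoy receptor that binds interleukin-1 without signalling, had 5 UMIs in 3 of 15 Nrp1L/L cells and 220 UMIs in 21 of 40 control cells, a log2 ratio of -3.88 (-5.52 to -2.64). The ratio was -1.34 with the rule on thinned cells, -2.44 with cells weighted equally and -0.41 without cells with at least 5 cell cycle UMIs. That share was 20% (4.33 to 48.1) in Nrp1L/L and 52.5% (36.1 to 68.5) in control cells, against 6.91% and 19.7% of T-type cells. The interferon receptor genes had ratios of both signs, with intervals that reached 0 at the digits shown. Ifngr1 stood at -0.57 (-1.18 to 0.00), Ifngr2 at -0.72 (-1.81 to 0.23), Ifnar1 at -0.38 (-1.71 to 0.77) and Ifnar2 at 0.69 (-0.19 to 1.54).

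Chemokine genes split, with 5 of 13 at least 1.5-fold higher, 4 lower and a median of -0.16, and 3 of the lower ones at 0 UMIs in Nrp1L/L cells. Besides Ccl17 these were Cxcl16 and Ccl24. Cxcl16, a membrane-bound ligand of Cxcr6, had 0 UMIs in 15 Nrp1L/L cells (exact interval 0 to 21.8% of cells with a UMI). In control cells Cxcl16 had 82 UMIs in 16 of 40 cells (40%, 24.9 to 56.7). T-type cells had it in 1.06% of Nrp1L/L and 4.85% of control cells. Against the floor of 3 counts its summed level was 9.17-fold lower in Nrp1L/L cells (log2 -3.20). The log2 value was -1.17 with the rule on thinned cells and -1.44 without cells with at least 5 cell cycle UMIs. In C1q macrophage-type cells Cxcl16 stood higher in Nrp1L/L, at 516 CPM in Nrp1L/L and 355 CPM in control cells. Ccl24 was found in 3 control cells, 82.8% of it in 1 cell. Ccl4, an inflammatory chemokine, stood at 0.70 (0.52 to 0.88). Ccl2 stood at 2.49 (1.96 to 3.04) with 97.7% of its Nrp1L/L UMIs in 1 cell, and at -2.41 without the top cells. Of 6 measured receptors for migration 1 was higher and 2 lower, among them Ccrl2, a receptor that binds chemerin, at -2.14 (-3.50 to -1.04).

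**Figure D5:**
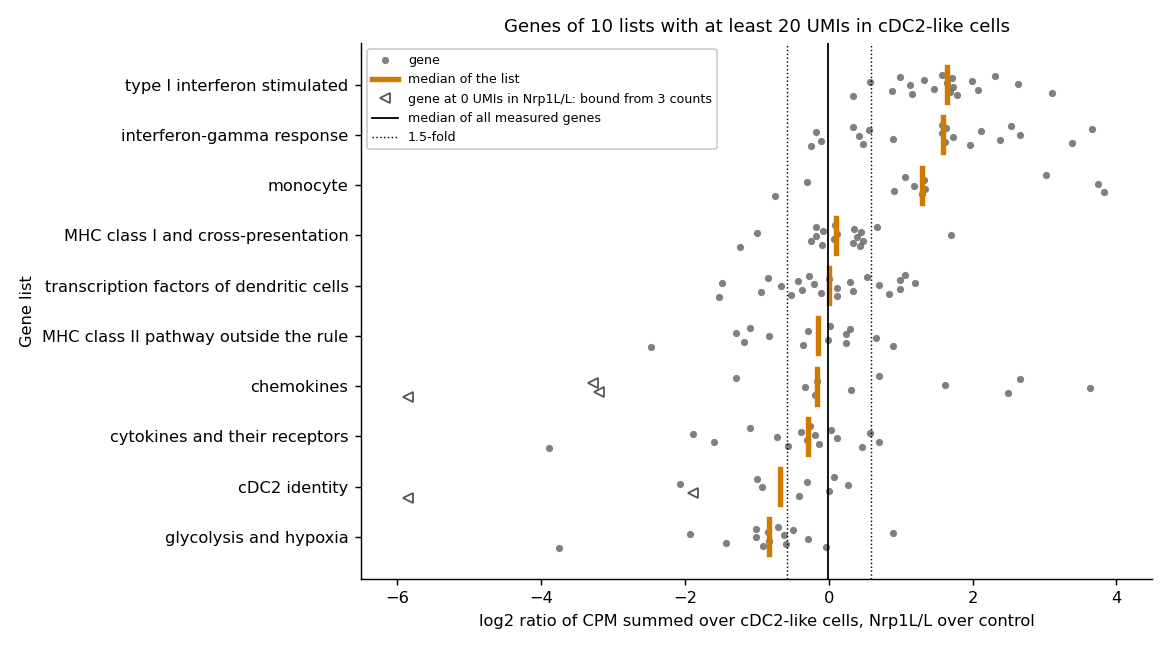
Log2 ratio of CPM (Nrp1L/L over control) of each gene with at least 20 UMIs in cDC2-like cells, for 10 lists, with orange bars at list medians, a solid line at the median of all measured genes (-0.01) and dotted lines at 1.5-fold. The type I and interferon-gamma medians are 1.65 and 1.59, the glycolysis and hypoxia median is -0.83, and open triangles mark genes at 0 UMIs in Nrp1L/L.

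Pattern recognition receptors had 4 of 8 higher and 3 lower (median 0.12). Clec4n, the dectin-2 receptor for fungal sugars, stood at 71.0 CPM in Nrp1L/L and 458 CPM in control cells (log2 -2.69, -3.77 to -1.78), and was found in 3 of 15 and 23 of 40 cells. It stood at -4.10 without the top cells and at -4.58 without cells with at least 100 Lyz2 UMIs. Tmem173, the STING adaptor of DNA sensing, stood at 2.06 (1.18 to 2.97), and the Toll receptor adaptor Myd88 at 1.09 (0.45 to 1.72). Of 23 transcription factors 6 were higher and 5 lower, with a median of 0.01. Cebpb, an inflammatory factor of myeloid cells, stood at 241 CPM in Nrp1L/L and 672 CPM in control cells (log2 -1.48, -2.04 to -0.96). It was found in 13 of 15 Nrp1L/L (86.7%) and 26 of 40 control cells (65%), with a median of 1 UMI in both. The highest cells held 10 UMIs in Nrp1L/L and 71 in control. Klf4 (0.01, -0.72 to 0.70) and Zeb2 (0.12, -0.70 to 0.88), both needed by parts of the cDC2 branch, had intervals that included 0.

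Glycolysis and hypoxia genes stood lower in Nrp1L/L cells, with 11 of 15 at least 1.5-fold lower, 1 higher and a median of -0.83. In other populations the median was -0.11 (C1q macrophage-type), -0.50 (monocyte-type) and -0.24 (T-type). The list made up 50.7 in each 10000 UMIs of a Nrp1L/L cell (18.6 to 148) and 83.5 of a control cell (19.8 to 220), with overlapping ranges. Ldha, which turns pyruvate into lactate, had medians of 8 UMIs in Nrp1L/L (0 to 32) and 16 in control cells (1 to 71) and a log2 ratio of -0.83 (-1.10 to -0.56). Gapdh stood at -0.85 (-1.12 to -0.59) and Gpi1, an early enzyme of the pathway, at -1.01 (-1.52 to -0.53). The hypoxia-induced genes Bnip3, a mitophagy receptor, and Egln3, an oxygen sensor, stood at -1.92 (-3.28 to -0.81) and -3.75 (-9.09 to -1.19). Hilpda, a hypoxia-induced inhibitor of fat breakdown, had 3 UMIs in Nrp1L/L and 121 in control cells (log2 -3.76, -6.06 to -2.18), 47.1% of the control UMIs in 1 cell, and stood at -0.79 without cells with at least 5 cell cycle UMIs. The platelet-type phosphofructokinase Pfkp was the exception at 0.89 (0.50 to 1.27), and 0.24 without the top cells. When the rule was applied to cells thinned to 2500 UMIs, the list median shrank to -0.20.

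The fatty acid programme of SREBP1, which the series addresses in macrophages, was barely counted in cDC2-like cells. Only Srebf1, its factor, and Acly, which makes acetyl-CoA, reached 20 UMIs among 16 genes. Srebf1 had 1 UMI in 1 of 15 Nrp1L/L cells and 19 UMIs in 11 of 40 control cells (log2 -2.67, -8.05 to -0.02), and Acly stood at -0.43 (-1.47 to 0.51). The cholesterol genes of SREBP2 had a median of -0.09, near that of all genes, with 3 of 17 higher and 6 lower. Cell cycle genes had 3 of 14 higher and 7 lower with a median of -0.61. They made up a median of 2.38 in each 10000 UMIs of a Nrp1L/L cell (quartiles 1.70 and 6.02) and 7.999 of a control cell (quartiles 4.74 and 11.2). At least 5 cell cycle UMIs were held by 6 of 15 Nrp1L/L (40%, 16.3 to 67.7) and 28 of 40 control cells (70%, 53.5 to 83.4). Those with at least 100 were 1 Nrp1L/L and 3 control cells, and with the rule on thinned cells the median turned to 0.05. Immediate early and heat shock genes, which can rise during tissue dissociation, had 3 of 20 higher and 6 lower (median 0.10). Hspa1a stood at -3.58 (-4.72 to -2.63) with 36.9% of control UMIs in 1 cell, and at 0.56 with the rule on thinned cells.

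The 10 higher and 10 lower genes whose interval lay farthest from 0 added few beyond those above. Higher in Nrp1L/L cells were also Pxk, Ap1ar and Map3k11, with 27 of 30, 19 of 28 and 12 of 25 of their Nrp1L/L UMIs in 1 cell. Pxk stood at -0.89 without cells with at least 5 cell cycle UMIs. Nkg7 and Ccl5 were higher mainly through 1 cell, with ratios of 3.82 (2.701 to 5.13) and 3.63 (2.91 to 4.41), and of 2.001 and 1.32 without the top cells. Without the 3 cells with NK or plasmacytoid UMIs they stood at 1.83 and 0.92. Lower in Nrp1L/L cells were also Mmp12, an elastase with 0 UMIs in Nrp1L/L and 105 in control cells, 87.6% of them in 1 cell. Kctd12 stood at -3.71 (-6.78 to -1.81), from 2 UMIs in Nrp1L/L and 78 in control cells. Bcl2a1a, a survival gene of a family of near-identical copies that 3' tags may not separate, stood at -3.26 (-4.91 to -2.01).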

How the data were processed

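The authors deposited UMI counts per gene and barcode for barcodes already called as cells; per the submitters' processing notes they were made with Cell Ranger 1.3 on mm10. No barcode was removed here. The cells, the 30 gene lists and the comparisons were chosen with earlier results of these data known. Each genotype was 1 library, so counts were summed over cells of a library, scaled to CPM with exact Poisson intervals, and compared as log2 ratios with exact conditional binomial intervals. Shares carry exact Clopper-Pearson intervals and differences of shares Newcombe intervals. Where 1 library had 0 counts, a floor of 3 counts over its cells gave a bound. Genes needed 20 UMIs over both libraries, and 1.5-fold was the limit for counting a gene as higher or lower. Rule genes were left out of those counts. Named genes were the 10 higher and 10 lower whose interval lay farthest from 0 with UMIs in at least 3 cells of the higher library, the 20 leading genes against other barcodes of the same library, and genes of the lists.

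Comparison populations were set by gates. The cDC1-type gate needed 2 UMIs of Xcr1 and Clec9a, the mature-type gate 3 of Ccr7, Fscn1 and Cacnb3, the C1q macrophage-type gate 10 of C1q genes, each with 20 class II UMIs; the monocyte-type gate needed 2 of Ly6c2 and 10 of Lyz2 with no Cd209a, Cd209d or Flt3, and the T-type gate 3 of CD3 genes. Doublets were scored with Scrublet in scanpy 1.11.5 and none were removed. Thinning drew 2500 UMIs from each cell. The rule on thinned cells asked for at least 1 lectin or Flt3 UMI in place of 2, so it could choose other cells. Gene positions are from GENCODE on GRCm38 and upstream sequence from RefSeq on GRCm38.p6. Calculations used Python 3.11.15, numpy 2.4.6, scipy 1.17.1 and pandas 2.3.3, and the ratio and interval functions were tested on simulated data. Alternatives changed the thresholds of the rule, the depth, the scaling, the minimum count and the weight of cells. Leaving out cells rich in Lyz2, cells with plasmacytoid or NK genes, and the top cell of each gene was chosen after seeing the data. Some genes are not reported here.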

Additional observations from a re-analysis of the deposited data

How the results depend on the processing

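Over the alternatives, 318 of 329 list medians and 255 of 300 values of named genes stayed within the interval of the reported value. So did 19 of 21 shares of library barcodes. For a list this interval was taken as the median half-width of its genes' intervals. That width comes from single genes, so a list median could turn its sign and still count as unchanged. Only 10 list medians were counted as moved and 1 as reversed. The sign turned in 36 of the list medians, none of them of the type I interferon, interferon-gamma, monocyte, glycolysis and hypoxia or cDC2 identity lists, and in 3 of the gene values (F13a1, Hspa1a and Pxk). The rule on thinned cells, with a lectin and Flt3 minimum of 1 UMI, chose 15 Nrp1L/L and 38 control cells. There the type I interferon median was 0.94 and the glycolysis and hypoxia median -0.20. The cell cycle median was 0.053 and Hspa1a stood at 0.56, both with their sign turned. Leaving out cells with at least 5 cell cycle UMIs, which kept 9 Nrp1L/L and 12 control cells, gave a control share of 0.916%, a difference of -0.224 points, 321 higher and 252 lower genes, a chemokine median of 1.12 and Pxk at -0.89. Leaving out cells with at least 100 Lyz2 UMIs gave a chemokine median of -0.89, a pattern recognition median of -1.30 and F13a1 at -0.67. At a minimum of 10 UMIs 1218 genes were higher and 1250 lower, at 50 UMIs 279 and 257, and with no minimum 2105 and 1409, where the chemokine median was 0.70. Without the top cell of each gene 1194 were lower, which takes 1 of 15 Nrp1L/L but 1 of 40 control cells. The cause of these shifts was not tested. Median-of-ratios scaling moved the median of all genes to -0.22, and ratios shift with it. Thinning gave UMIs of Clec10a in 45%, Lyz2 in 45%, Ly6c2 in 20% and Fcgr1 in 30% of control cells, and of Fcgr1 in 40% of Nrp1L/L cells. No paired analysis was possible because each genotype had 1 library. With 15 Nrp1L/L cells, 0 cells with a UMI allows a share with a UMI of up to 20% by the floor of 3 counts. The exact interval reached 21.8%.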
